A study of Mus musculus with 6 samples.

Results

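The enzymes that break down tyrosine and tryptophan were followed in bulk RNA-seq of mouse liver, through 9 genes taken by name. *Tat*, *Hpd*, *Hgd*, *Gstz1* and *Fah* make up the tyrosine branch and *Tdo2*, *Kmo*, *Kynu* and *Haao* the tryptophan branch. Each of the 9 symbols matched 1 of 49671 gene identifiers, and all 9 were among the 16089 genes with enough counts to be tested. The livers came from 6 male C57BL/6J mice, all given the AMLN diet (high fat with added fructose and cholesterol, a model of steatohepatitis) from 4 weeks of age for 18 weeks, so that they were 22 weeks old at harvest. The WT group was 3 SHMT2fl/fl mice, in which both alleles of *Shmt2* are floxed and no Cre is present. The KO group was 3 SHMT2HKO mice, which carry the same floxed alleles and Albumin-Cre. This recombinase is driven by the albumin promoter and so is active in hepatocytes. The study proposes that non-parenchymal liver cells keep SHMT2. Every mouse was on the diet, and the comparison asks how loss of hepatocyte SHMT2, the mitochondrial serine hydroxymethyltransferase, went with mRNA levels on that diet. The labels do not say whether the mice of a group were littermates, so the p-values measure only the spread between these 6 livers.

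The liver is the main site of breakdown of the aromatic amino acids. Phenylalanine is hydroxylated to tyrosine. Tyrosine is then transaminated by tyrosine aminotransferase (*Tat*) and taken through 4-hydroxyphenylpyruvate dioxygenase (*Hpd*), homogentisate dioxygenase (*Hgd*), maleylacetoacetate isomerase (*Gstz1*) and fumarylacetoacetase (*Fah*) to fumarate and acetoacetate. Tryptophan is opened by tryptophan dioxygenase (*Tdo2*) and passes from kynurenine through kynurenine monooxygenase (*Kmo*), kynureninase (*Kynu*) and 3-hydroxyanthranilate dioxygenase (*Haao*) towards either glutaryl-CoA or NAD. *Tat* and *Tdo2* are classic glucocorticoid-induced genes of hepatocytes, and inherited loss of *Fah* causes hereditary tyrosinaemia.

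Levels are given as CPM, the count of a gene relative to the size of its library after TMM scaling, a normalization that takes most genes as unchanged between libraries. Changes are log2 fold changes of SHMT2HKO over SHMT2fl/fl from the quasi-likelihood test of edgeR, with Benjamini-Hochberg adjustment over all 16089 genes, and a gene is said to have risen or fallen where its adjusted p was under 0.05. Gene counts per library ranged from 23090837 to 34089722. *Shmt2* (ENSMUSG00000025403, chr10:127517123-127522444, minus strand) had 2897 to 3866 counts in the SHMT2fl/fl livers and 491 to 587 in the SHMT2HKO livers, or 99.1 ± 8.50 and 24.1 ± 4.51 CPM (SD, n = 3 each), a log2 fold change of -2.04 (adjusted p = 0.000639). An exact two-sided permutation test of its CPM gave p = 0.1, the smallest that 3 against 3 mice allow. The genotypes differed widely. Of all genes tested, 12.5% rose and 16.5% fell, and TMM factors were 1.13 to 1.21 in SHMT2fl/fl against 0.802, 0.811 and 0.984 in SHMT2HKO. All 50 markers used for liver cell types had counts in every mouse. All 6 cholangiocyte markers fell, with a summed level of 955 to 1186 CPM in SHMT2fl/fl and 128 to 245 in SHMT2HKO. Most of this sum was 1 marker, *Spp1*, at 791 to 943 CPM in SHMT2fl/fl and 104 to 215 in SHMT2HKO. Of 8 stellate cell and myofibroblast markers 5 fell and 1 rose (1213 to 1256 against 260 to 692 CPM), 3 of 6 lymphocyte markers fell (12.2 to 14.7 against 2.93 to 4.01 CPM) and so did 3 of 4 dendritic cell markers (31.7 to 40.7 against 6.57 to 21.2 CPM). Of 10 macrophage and Kupffer cell markers 3 rose and 4 fell (696 to 918 against 525 to 635 CPM), and 2 of 6 endothelial markers rose (160 to 185 against 227 to 265 CPM). Of 10 hepatocyte markers 5 rose (62581 to 76893 against 73822 to 113319 CPM), though their median log2 fold change, 0.69 with TMM, was -0.13 with ERCC scaling. In whole liver, fewer cells of a type and less RNA per cell cannot be told apart.

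With TMM scaling the mean levels of the tyrosine and tryptophan enzymes were higher in SHMT2HKO livers, with *Tat* as the exception. Of the 9 genes, 5 rose (*Gstz1*, *Fah*, *Kmo*, *Kynu* and *Haao*) against a background of 12.5% of all genes, or 29.0% for a change in either direction. *Hpd*, *Hgd* and *Tdo2* had positive log2 fold changes that missed the threshold, and *Tat* a negative one. With edgeR 0 of the 9 fell, against 16.5% of all genes. At an unadjusted p under 0.05 the count was 1, which was *Tat*, where 3511 of all 16089 genes were lower. The count was 1 with DESeq2 (17.9% of all genes lower) and 0 with limma-voom (17.4%). The median log2 fold change over the 9 genes was 0.76, where that over all tested genes was 0.03. In 6 genes every SHMT2HKO mouse lay above every SHMT2fl/fl mouse, which was so for 21.9% of all genes, and in the other 3 the genotypes overlapped. Over all genes the genotypes were apart in 46.9%, with every SHMT2HKO mouse below in 25.0%. These directions are relative to most genes of the same livers, and they depend on how libraries are scaled. With library totals alone in place of TMM the member median was 0.31, with the 10 hepatocyte markers as reference 0.11, and with the ERCC spike-in RNAs as reference -0.08.

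**Figure D1:**
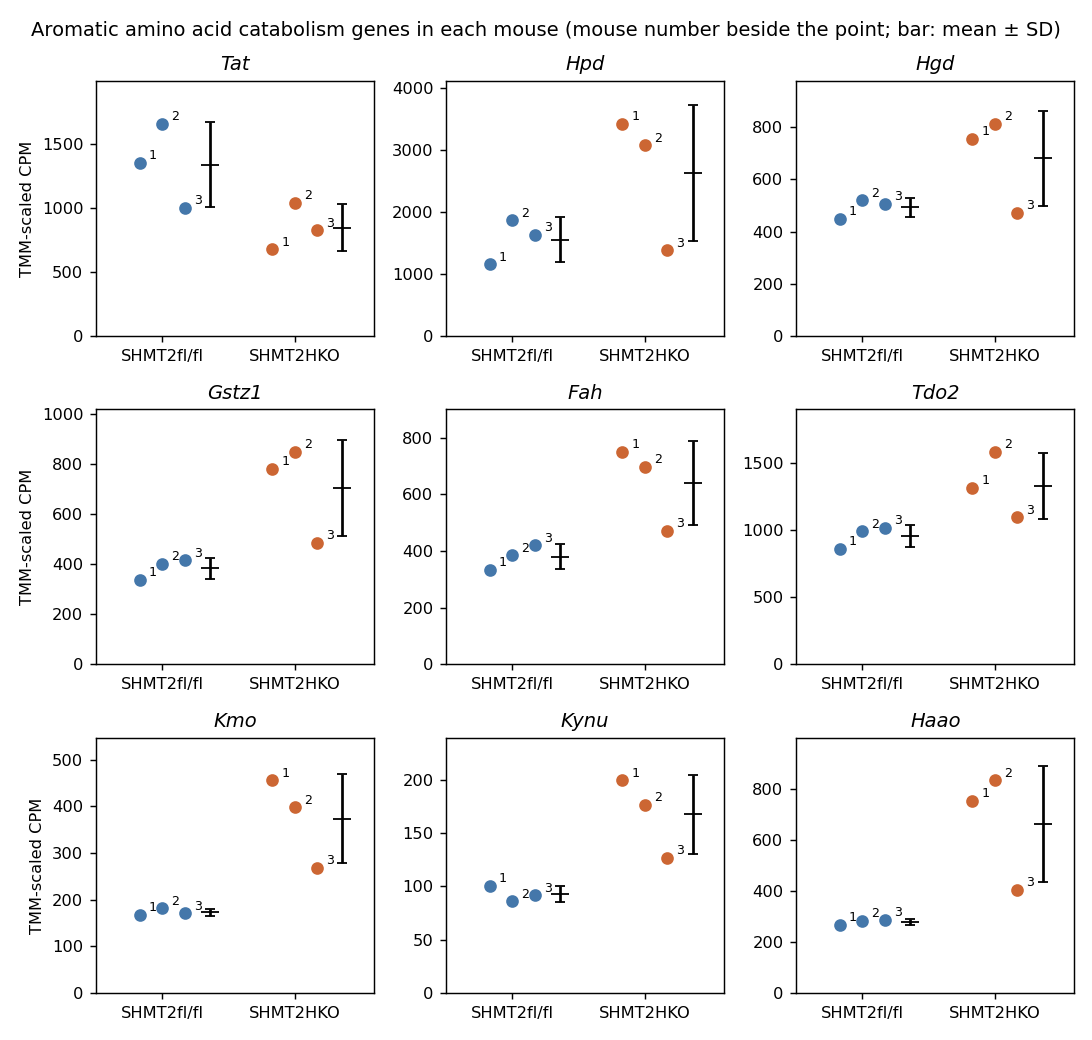
TMM-scaled CPM (linear axes from 0) of the 9 genes in each of the 6 mice. Each point is 1 liver with its mouse number, and the bars are mean ± SD of a genotype (n = 3). In *Gstz1*, *Fah*, *Tdo2*, *Kmo*, *Kynu* and *Haao* the SHMT2HKO mice lay above the SHMT2fl/fl mice, and in *Tat*, *Hpd* and *Hgd* the groups overlapped.

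The sequence just upstream of 4 of the genes is shown because they span the range of the response, from *Tat*, with the lowest log2 fold change of the 9, through *Fah*, to *Kmo* and *Haao*, with the highest. Each is the 250 bases before the RefSeq start (GRCm38.p6), written 5′ to 3′ on the strand of the gene, with matches to 7 short motifs in capitals. The windows are chr8:109990186-109990435 (plus strand) for *Tat*, chr7:84605943-84606192 (minus strand) for *Fah*, chr1:175631943-175632192 (plus strand) for *Kmo* and chr17:83846791-83847040 (minus strand) for *Haao*. That of *Tat* lies just before the gene, and the other 3 fall within the longer gene span of the GENCODE annotation.
Tat: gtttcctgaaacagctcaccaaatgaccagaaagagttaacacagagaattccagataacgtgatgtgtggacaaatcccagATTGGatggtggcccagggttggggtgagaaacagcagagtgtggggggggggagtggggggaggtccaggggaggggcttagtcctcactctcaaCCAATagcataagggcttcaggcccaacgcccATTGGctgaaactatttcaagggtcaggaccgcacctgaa
Fah: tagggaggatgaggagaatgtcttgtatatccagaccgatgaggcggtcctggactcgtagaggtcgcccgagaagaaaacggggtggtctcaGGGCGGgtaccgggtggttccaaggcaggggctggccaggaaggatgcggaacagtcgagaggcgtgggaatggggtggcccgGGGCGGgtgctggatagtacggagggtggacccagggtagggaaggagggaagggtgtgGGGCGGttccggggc
Kmo: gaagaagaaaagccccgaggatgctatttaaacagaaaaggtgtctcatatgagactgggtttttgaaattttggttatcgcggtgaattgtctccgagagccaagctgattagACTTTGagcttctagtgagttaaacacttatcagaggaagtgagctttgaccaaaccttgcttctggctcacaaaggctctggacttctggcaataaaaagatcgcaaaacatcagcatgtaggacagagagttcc
Haao: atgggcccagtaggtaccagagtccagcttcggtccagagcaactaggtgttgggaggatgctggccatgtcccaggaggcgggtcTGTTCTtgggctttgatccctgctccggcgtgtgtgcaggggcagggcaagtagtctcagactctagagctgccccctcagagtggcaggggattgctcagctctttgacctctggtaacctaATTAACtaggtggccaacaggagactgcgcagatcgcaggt

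The motifs were searched on both strands, so that the capitals show either the motif or its reverse complement, and no match overlapped another. The windows of 8 of the 9 genes were searched (*Kynu* was not analysed here), and with 2 start sites for *Gstz1* they numbered 9. *Tat* held 3 matches to CCAAT, the core of the CCAAT box, which was also matched in *Tdo2*, *Hgd* and both *Gstz1* windows; 33.8% of the 32851 windows of all genes held it. *Fah* held 3 matches to GGGCGG, the GC box bound by Sp1-type factors, which was also found in *Hpd* and both *Gstz1* windows and in 32.7% of all windows. *Haao* held a match to GTTAAT (6.43% of all windows) and one to AGAACA, part of the glucocorticoid response element (16.1%). *Kmo* held CAAAGT, part of the direct repeat bound by HNF4A and related receptors (12.6%). TATAAA was found in *Tdo2* and *Hgd* (12.4%) and TTGCNNAA, the core of the C/EBP site, in *Hgd* alone of these windows (9.56%). None of the 7 motifs was in all 9 windows.

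In the tyrosine branch the last 2 enzymes rose, and the first enzyme had a lower mean level. *Gstz1* (ENSMUSG00000021033, chr12:87147165-87164723, plus strand), the glutathione-dependent isomerase, was at 337, 401 and 416 CPM in SHMT2fl/fl mice 1 to 3 and at 782, 849 and 486 CPM in SHMT2HKO mice 1 to 3. The groups did not overlap, and the log2 fold change was 0.87 (SE 0.23, adjusted p = 0.0227). *Fah* (ENSMUSG00000030630, chr7:84585159-84606722, minus strand), which makes the final cut to fumarate and acetoacetate, was at 333, 385 and 421 CPM in SHMT2fl/fl and at 750, 697 and 472 CPM in SHMT2HKO. Again each SHMT2HKO mouse was above each SHMT2fl/fl mouse, SHMT2HKO mouse 3 by the least, with a log2 fold change of 0.75 (SE 0.21, adjusted p = 0.0274). Both calls were lost without any 1 of 4 mice: the adjusted p of *Gstz1* was 0.0919, 0.0712 or 0.0680 without SHMT2fl/fl mouse 1, 2 or 3 and 0.0734 without SHMT2HKO mouse 2, and that of *Fah* was 0.106, 0.0890, 0.0690 and 0.0815. *Gstz1* shares 465 exon bases with *Pomt2* on the other strand, and whether the counting used strand is not stated; *Pomt2* had 3499 counts over all samples, against 10682 or more for *Gstz1* in each mouse.

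*Hpd* (ENSMUSG00000029445, chr5:123171807-123182727, minus strand), whose product forms homogentisate, was at 1161, 1870 and 1634 CPM in SHMT2fl/fl and at 3432, 3083 and 1383 CPM in SHMT2HKO. SHMT2HKO mice 1 and 2 lay far above the controls while mouse 3 lay among them, and the log2 fold change of 0.76 (SE 0.35) had an adjusted p of 0.135. *Hgd* (ENSMUSG00000022821, chr16:37580153-37632020, plus strand), which opens the ring of homogentisate, was at 449, 520 and 506 CPM in SHMT2fl/fl and 754, 814 and 472 CPM in SHMT2HKO, with mouse 3 again within the control range (log2 fold change 0.47, SE 0.22, adjusted p = 0.144). Without SHMT2HKO mouse 3 the adjusted p was 0.00871 for *Hpd* and 0.0107 for *Hgd*, at log2 fold changes of 1.04 and 0.65.

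*Tat* (ENSMUSG00000001670, chr8:109990437-109999803, plus strand), the enzyme of the first step, was at 1354, 1659 and 1000 CPM in SHMT2fl/fl and at 676, 1038 and 824 CPM in SHMT2HKO. The means were 1338 ± 330 and 846 ± 182 CPM (SD, n = 3 each), but SHMT2HKO mouse 2 was above SHMT2fl/fl mouse 3, and the log2 fold change of -0.66 (SE 0.24) had an adjusted p of 0.0718. The direction was negative in each of 16 alternative analyses, and the threshold was passed in 6 of them: with DESeq2 (adjusted p = 0.0230), library totals alone (0.00998), upper-quartile scaling (0.0481), ERCC scaling (0.0100), a filter of 1 count (0.0323) and hepatocyte marker scaling (0.00682). Of all genes 18.9% fell with upper-quartile scaling and 8.74% with the filter of 1 count.

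In the tryptophan branch the 3 enzymes after kynurenine rose. *Haao* (ENSMUSG00000000673, chr17:83831156-83847963, minus strand), which forms the precursor of quinolinate, was at 266, 283 and 286 CPM in SHMT2fl/fl and at 753, 832 and 405 CPM in SHMT2HKO. This was the largest log2 fold change of the 9 genes, 1.25 (SE 0.26, adjusted p = 0.00955), with means of 278 ± 10.9 and 663 ± 227 CPM (SD, n = 3 each), and 3.23% of all tested genes had a higher one. *Kmo* (ENSMUSG00000039783, chr1:175620381-175662116, plus strand), which hydroxylates kynurenine, was at 167, 182 and 171 CPM in SHMT2fl/fl and at 456, 398 and 268 CPM in SHMT2HKO. Its controls were tightly grouped and every SHMT2HKO mouse stood clear of them, with a log2 fold change of 1.11 (SE 0.20, adjusted p = 0.00585). *Kynu* (ENSMUSG00000026866, chr2:43555329-43682715, plus strand), which splits 3-hydroxykynurenine, was at 101, 85.9 and 91.4 CPM in SHMT2fl/fl and at 199, 177 and 127 CPM in SHMT2HKO, again without overlap (log2 fold change 0.86, SE 0.18, adjusted p = 0.00983). These 3 calls held without any 1 of the 6 mice, with adjusted p of at most 0.0455 for *Haao*, 0.0340 for *Kmo* and 0.0479 for *Kynu*.

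*Tdo2* (ENSMUSG00000028011, chr3:81957090-81976202, minus strand), the entry enzyme, was at 862, 993 and 1019 CPM in SHMT2fl/fl and at 1314, 1583 and 1096 CPM in SHMT2HKO. The groups did not overlap, although SHMT2HKO mouse 3 came close to the highest control, and the log2 fold change of 0.47 (SE 0.19) missed the threshold (adjusted p = 0.0912); it was 0.0230 with DESeq2, and without SHMT2HKO mouse 3 it was 0.0295. By branch, 2 of 5 tyrosine genes rose with a median log2 fold change of 0.75, and 3 of 4 tryptophan genes with a median of 0.98. Over all genes 12.5% rose, with a median of 0.03. With ERCC scaling 0 genes of either branch rose, where 0.665% of all genes did, and the medians were -0.15 and 0.15.

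**Figure D2:**
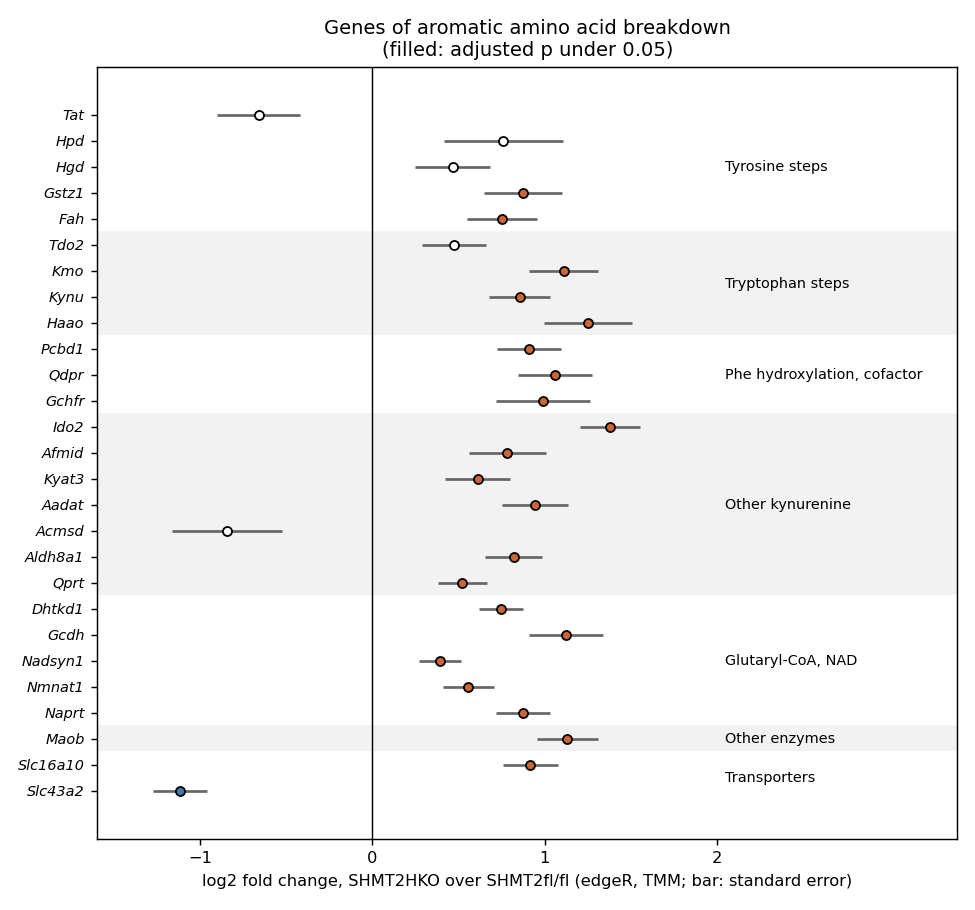
Log2 fold change of SHMT2HKO over SHMT2fl/fl (TMM scaling) for the 9 genes in pathway order and for the genes of 5 related lists that changed or are named in the text, with bars of 1 SE. Filled points had an adjusted p under 0.05. Of the 9 genes *Tat* stands below 0 at -0.66, and *Kmo* (1.11) and *Haao* (1.25) stand highest; with ERCC scaling *Hpd*, *Hgd*, *Fah* and *Tdo2* fall below 0.

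In every gene but *Tat* the SD was larger among SHMT2HKO mice than among controls. SHMT2HKO mouse 3 had the lowest level of the 3 SHMT2HKO mice in 8 of the 9 genes, *Tat* being lowest in mouse 1. The highest SHMT2HKO level was in mouse 1 for 4 genes and in mouse 2 for 5, and the highest was 1.44 times the lowest for *Tdo2* and 2.48 times for *Hpd*. Mouse 3 also had the TMM factor (0.984) and the ERCC share of its library (1.35%) nearest the controls, which had shares of 1.42% to 1.84%, where SHMT2HKO mice 1 and 2 had 2.75% and 2.31%. Without this mouse 8 of the 9 genes rose, against 15.0% of all genes. Without SHMT2fl/fl mouse 1, 2 or 3 or SHMT2HKO mouse 2 the count was 3, and the share of all genes that rose was then 5.76%, 5.20%, 4.93% and 6.72%. The part of spike-in share or library composition in these differences was not tested.

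Per kilobase of exon, which allows genes to be compared, *Hpd* and *Tat* were the most abundant of the 9 in controls, and *Tdo2* the most abundant of the tryptophan branch. Lengths are those of all annotated exons of a gene joined, from GENCODE, so genes with long rare isoforms are placed too low. In SHMT2fl/fl *Hpd* came first at 731 ± 170 CPM per kb (SD, n = 3), followed by *Tat* at 556 ± 137, and these neighbours overlapped among mice. *Tdo2* came next at 247 ± 21.6, above *Hgd* at 188 ± 14.4 and *Fah* at 171 ± 19.97, which overlapped each other. *Gstz1* (75.6 ± 8.24), *Haao* (59.5 ± 2.32), *Kmo* (36.7 ± 1.59) and *Kynu* (15.1 ± 1.21) each lay below the gene before without overlap. In SHMT2HKO *Hpd* stood at 1237 ± 515 CPM per kb, and below it *Tat* (352 ± 75.8), *Tdo2* (343 ± 62.8), *Fah* (288 ± 66.5) and *Hgd* (260 ± 69.8) overlapped one another. *Haao* (142 ± 48.5) and *Gstz1* (139 ± 37.9) overlapped as well, as did *Gstz1* and *Kmo* (79.2 ± 20.3), and *Kynu* (27.3 ± 6.02) was again the lowest.

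Ratios of 2 genes within a library do not depend on how libraries are scaled, and here some pairs separated the genotypes and others overlapped. The log2 ratio of *Hpd* to *Tat* counts was -0.22, 0.17 and 0.71 in SHMT2fl/fl mice 1 to 3 and 2.35, 1.57 and 0.75 in SHMT2HKO mice 1 to 3, a difference of means of 1.33. The groups did not overlap, but SHMT2fl/fl mouse 3 and SHMT2HKO mouse 3 nearly met. The log2 ratio of *Gstz1* to *Hgd*, enzymes of adjacent steps, was -0.41, -0.37 and -0.28 in SHMT2fl/fl and 0.05, 0.06 and 0.04 in SHMT2HKO, a difference of 0.41 that was nearly the same in each SHMT2HKO mouse. For *Kmo* over *Tdo2* it was -2.37, -2.45 and -2.58 in SHMT2fl/fl and -1.53, -1.99 and -2.03 in SHMT2HKO, higher by 0.61 and without overlap. These 2 genes are not adjacent, since the formamidase step lies between them. The other pairs overlapped between genotypes, with differences of -0.25 for *Hgd* over *Hpd*, -0.11 for *Fah* over *Gstz1*, -0.24 for *Kynu* over *Kmo* and 0.35 for *Haao* over *Kynu*. These ratios are descriptions without a test. How often ratios of other gene pairs separate the genotypes was not computed, so the separated pairs cannot be called particular to this pathway.

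**Figure D3:**
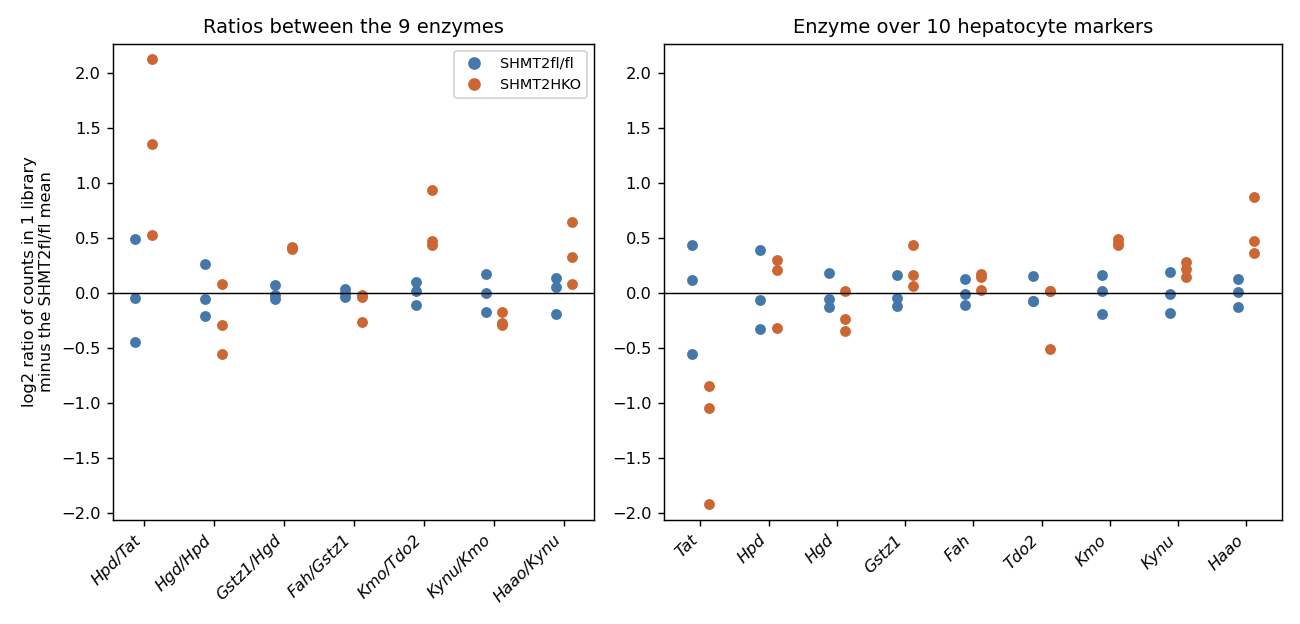
Log2 ratio of counts within each of the 6 libraries, less the SHMT2fl/fl mean of that ratio, with 1 point per mouse. Left, ratios between enzymes, of which *Hpd* over *Tat*, *Gstz1* over *Hgd* and *Kmo* over *Tdo2* were higher in every SHMT2HKO mouse; right, each gene over the 10 hepatocyte markers, where *Tat* was lower and *Kmo* and *Haao* higher in every SHMT2HKO mouse.

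Set against hepatocyte markers of the same library, 3 genes separated the genotypes. Of all tested genes, set against the same markers, every SHMT2HKO mouse was above every control in 2.77% and below in 44.1%, so a lower ratio was common and a higher one was not. The log2 ratio of *Tat* to the geometric mean of the 10 markers was -1.15, -0.83 and -1.83 in SHMT2fl/fl and -3.19, -2.32 and -2.12 in SHMT2HKO, lower by a mean of 1.27 with every SHMT2HKO mouse below. For *Kmo* the ratio was higher in SHMT2HKO by 0.46 and for *Haao* by 0.57, both without overlap. The other 6 overlapped, with differences from -0.19 (*Hgd*) to 0.22 (*Gstz1*). The markers themselves had a median log2 fold change of 0.69 with TMM, close to the 0.76 of the 9 enzymes. With library totals the 2 medians were 0.24 and 0.31, and with ERCC scaling -0.13 and -0.08. Any part of the hepatocyte share of the RNA in the levels of *Hpd*, *Hgd*, *Gstz1*, *Fah*, *Tdo2* or *Kynu* was not tested.

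Scaling moved the genes together. Relative to TMM, the median over all tested genes shifted by -0.42 with library totals alone, by -0.59 with hepatocyte markers and by -0.72 with ERCC RNAs. The median of the 9 genes less that of all genes was 0.73 with TMM, 0.70 with library totals, 0.67 with hepatocyte markers and 0.62 with ERCC RNAs. Each scaling applies 1 factor to all genes of a library, so this difference could hardly change and is no check of the shift. With library totals 2 of the 9 genes rose, *Kmo* (0.66, adjusted p = 0.0113) and *Haao* (0.79, adjusted p = 0.0154), where 3.34% of all genes did, and *Tat* fell (-1.09), as did 30.6% of all genes. With ERCC scaling edgeR called 0 of the 9 genes higher, also at an unadjusted p under 0.05, where 166 of all 16089 genes were higher. The log2 fold changes ran from -1.34 for *Tat*, which fell, through -0.37 for *Hgd* to 0.37 for *Haao*. Of all genes 0.665% rose and 17.1% fell there. With hepatocyte marker scaling edgeR again called 0 higher, and 1 at an unadjusted p under 0.05, where 347 of all 16089 genes were higher. *Haao* stood at 0.58 (adjusted p = 0.0696), *Kmo* at 0.45, and *Tat* fell (-1.26), against 1.27% of all genes higher and 24.5% lower.

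**Figure D4:**
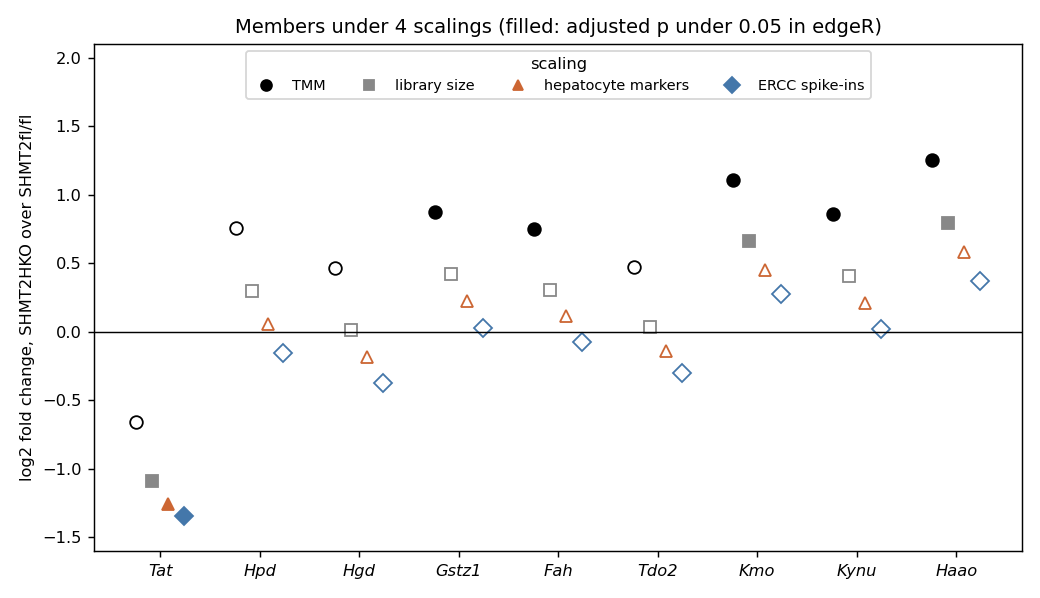
Log2 fold change of SHMT2HKO over SHMT2fl/fl for each of the 9 genes under 4 scalings, where filled points had an adjusted p under 0.05. Each gene is highest with TMM and lowest with ERCC RNAs as reference, under which *Hpd*, *Hgd*, *Fah* and *Tdo2* lie below 0, while *Tat* is below 0 under each of the 4.

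The step before tyrosine was followed in 9 genes for phenylalanine hydroxylation and its tetrahydrobiopterin cofactor. With TMM 3 of the 9 rose: *Qdpr*, which regenerates the cofactor (258 ± 31.6 CPM in SHMT2fl/fl and 538 ± 143 in SHMT2HKO, 1.06 on the log2 scale, adjusted p = 0.00933), *Pcbd1*, which acts beside it (0.91, adjusted p = 0.00940), and *Gchfr*, a regulator of cofactor synthesis (0.99, adjusted p = 0.0295). The call of *Gchfr* was lost without any 1 mouse other than SHMT2HKO mouse 3, with adjusted p of 0.0587 to 0.105. Of all genes 12.5% rose with TMM. The median of the list was 0.49 with TMM and -0.36 with ERCC scaling.

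Of 9 other kynurenine pathway genes 8 were tested and 6 rose with TMM, against 12.5% of all genes. The list median of 0.70 was -0.04 with ERCC scaling. *Ido2*, an indoleamine dioxygenase that acts on tryptophan like TDO2, was at 29.1, 35.6 and 34.3 CPM in SHMT2fl/fl and 106, 82.9 and 68.8 CPM in SHMT2HKO (log2 fold change 1.38, adjusted p = 0.00169), while *Ido1* had 0 to 4 counts in each mouse and was not tested. *Aadat* (0.95, adjusted p = 0.00897) and *Kyat3* (0.61, adjusted p = 0.0414), which transaminate kynurenine, *Afmid* (0.78, adjusted p = 0.0316), the formamidase that follows TDO2, *Aldh8a1* (0.82, adjusted p = 0.00875) and *Qprt* (0.52, adjusted p = 0.0274), which turns quinolinate towards NAD, made up the rest. *Acmsd*, which takes the product of HAAO away from quinolinate and was named after its values were seen, went the other way. It was at 45.8, 55.8 and 52.0 CPM in SHMT2fl/fl and at 39.0, 32.3 and 14.2 CPM in SHMT2HKO, every SHMT2HKO mouse being lower, but the log2 fold change of -0.84 had an adjusted p of 0.0853. It passed in 6 of 16 alternatives: DESeq2 (0.0296), library totals (0.00810), ERCC scaling (0.00630), hepatocyte marker scaling (0.00114), and without SHMT2HKO mouse 1 (0.0282) or mouse 3 (0.0171), where the value was -0.54. *Afmid* and *Qprt* missed the threshold without any 1 of the SHMT2fl/fl mice or SHMT2HKO mouse 2, with adjusted p up to 0.115 and 0.112. *Kyat3* missed it without SHMT2fl/fl mouse 1 or 3 or SHMT2HKO mouse 2 or 3, up to 0.127.

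Of 6 genes for glutaryl-CoA metabolism and NAD synthesis, not all of them steps from tryptophan, 5 rose with TMM, against 12.5% of all genes. The list median of 0.65 was -0.12 with ERCC scaling. *Gcdh*, glutaryl-CoA dehydrogenase, stood at 323 ± 11.5 CPM in SHMT2fl/fl and 705 ± 189 in SHMT2HKO (SD, n = 3 each), higher by 1.13 on the log2 scale (adjusted p = 0.00725). *Dhtkd1* (0.75), *Naprt* (0.87), *Nmnat1* (0.56) and *Nadsyn1* (0.39) rose as well, *Nadsyn1* with an adjusted p of 0.0452. *Nmnat1* missed the threshold without any 1 of the SHMT2fl/fl mice or SHMT2HKO mouse 2 (up to 0.0911), and *Nadsyn1* without any 1 of these or SHMT2HKO mouse 3 (up to 0.163). Among 6 other enzymes of aromatic amino acids and amines, 5 were tested and 1 rose, where 12.5% of all genes did. The gene was *Maob*, a monoamine oxidase (1.13, adjusted p = 0.00348), and the list median was 0.50 (-0.07 with ERCC scaling). Of 6 aromatic amino acid transporters 1 rose and 1 fell, against 12.5% and 16.5% of all genes. The list median was -0.30 (-1.03 with ERCC scaling). *Slc16a10*, the aromatic amino acid carrier TAT1, rose (61.1 ± 4.78 to 115 ± 21.8 CPM, adjusted p = 0.00522). Its log2 fold change of 0.92 was 0.11 with ERCC scaling (adjusted p = 0.863). *Slc43a2*, a system L carrier, fell (50.6 ± 3.97 to 23.2 ± 4.67 CPM, adjusted p = 0.00240).

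Regulators known from these genes were followed too. Of 12 hepatic transcription factors 6 rose with TMM and 1 with ERCC scaling, against 12.5% and 0.665% of all genes. *Onecut1* (HNF6) went from 7.25 ± 0.489 to 38.7 ± 15.03 CPM (2.42 on the log2 scale, adjusted p = 0.00127). *Ppara* (1.10), *Foxa1* (0.94), *Foxa2* (0.81) and *Cebpa* (0.72) also rose with TMM. *Foxa1* passed narrowly (adjusted p = 0.0444). It missed the threshold with limma-voom (0.0537), upper-quartile scaling (0.0630) and a filter of 1 count (0.123), and without SHMT2fl/fl mouse 1, 2 or 3 (0.114, 0.133 and 0.114), and without SHMT2HKO mouse 3 its log2 fold change was 0.47. *Cebpa* missed it without SHMT2fl/fl mouse 2 (0.0556). Of 8 glucocorticoid-responsive genes 0 changed with edgeR and TMM, against 29.0% of all genes. At an unadjusted p under 0.05 the count was 1, a lower one, where 3511 of all 16089 genes were lower. With DESeq2 1 fell (17.9% of all genes), and with limma-voom 0 changed. With edgeR 1 fell with library totals (30.6% of all genes), 2 with hepatocyte markers (24.5%) and 2 with ERCC scaling (17.1%). Their median was -0.25 (-1.09 with ERCC scaling), and *Sgk1* (-0.88, adjusted p = 0.0550) and *Tsc22d3*, which encodes GILZ (-0.68, adjusted p = 0.344), had the largest changes. Without SHMT2fl/fl mouse 2 the value of *Tsc22d3* was -0.18, without SHMT2fl/fl mouse 3 it was -1.03 and without SHMT2HKO mouse 1 it was -0.37. *Sgk1* passed in 8 of 16 alternatives. These were without SHMT2fl/fl mouse 3 (adjusted p = 0.0427) or SHMT2HKO mouse 3 (0.0139), DESeq2 (0.0172) and library totals (0.0267). The others were upper-quartile scaling (0.0416), ERCC scaling (0.0390), at least 10 counts in every sample (0.0463) and hepatocyte marker scaling (0.0304). *Tsc22d3* varied widely among controls, at 81.3, 134 and 38.2 CPM in SHMT2fl/fl mice 1 to 3. *Sgk1* was at 48.0, 40.7 and 26.4 CPM, with mouse 3 again the lowest control and mice 1 and 2 in the other order. Some other genes of the list had the control order of *Tsc22d3*, which was also that of *Tat*, and others did not. Whether these orders are linked was not tested.

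Breakdown of other amino acids had a similar shift. Of 22 genes for histidine, lysine, proline, serine and branched-chain amino acids 16 rose with TMM and 2 with library totals. Of all genes 12.5% and 3.34% did. The list medians were 0.60 and 0.16, and with ERCC scaling the median was -0.16. With TMM 20 of the log2 fold changes were positive and 2 negative. The 2 negative ones, the lower at -0.57, were the genes for serine breakdown, and neither passed the threshold. *Prodh*, proline dehydrogenase, was at 83.4, 118 and 102 CPM in SHMT2fl/fl and 280, 333 and 171 CPM in SHMT2HKO (1.37, adjusted p = 0.00621), and *Hibadh* of valine breakdown rose by 0.93 on the log2 scale (adjusted p = 0.00866). Of 7 urea cycle genes 1 rose, where 12.5% of all genes did, at a list median of 0.39 (-0.43 with ERCC scaling). The gene was *Otc* (0.74, adjusted p = 0.0362, but 0.0649 to 0.128 without any 1 mouse other than SHMT2HKO mouse 3). The 9 pathway lists together held 83 tested genes, of which 39 rose and 1 fell, against 12.5% and 16.5% of all genes. Their median was 0.56 against 0.76 for the 9 enzymes, and the difference was not tested. Without SHMT2fl/fl mouse 1, 2 or 3 the 39 became 20, 20 or 21, where 5.76%, 5.20% and 4.93% of all genes rose. Without SHMT2HKO mouse 2 the count became 22 (6.72% of all genes). The count was 14 with library totals (3.34%), 3 with hepatocyte markers (1.27%) and 1 with ERCC RNAs as reference (0.665%).

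**Figure D5:**
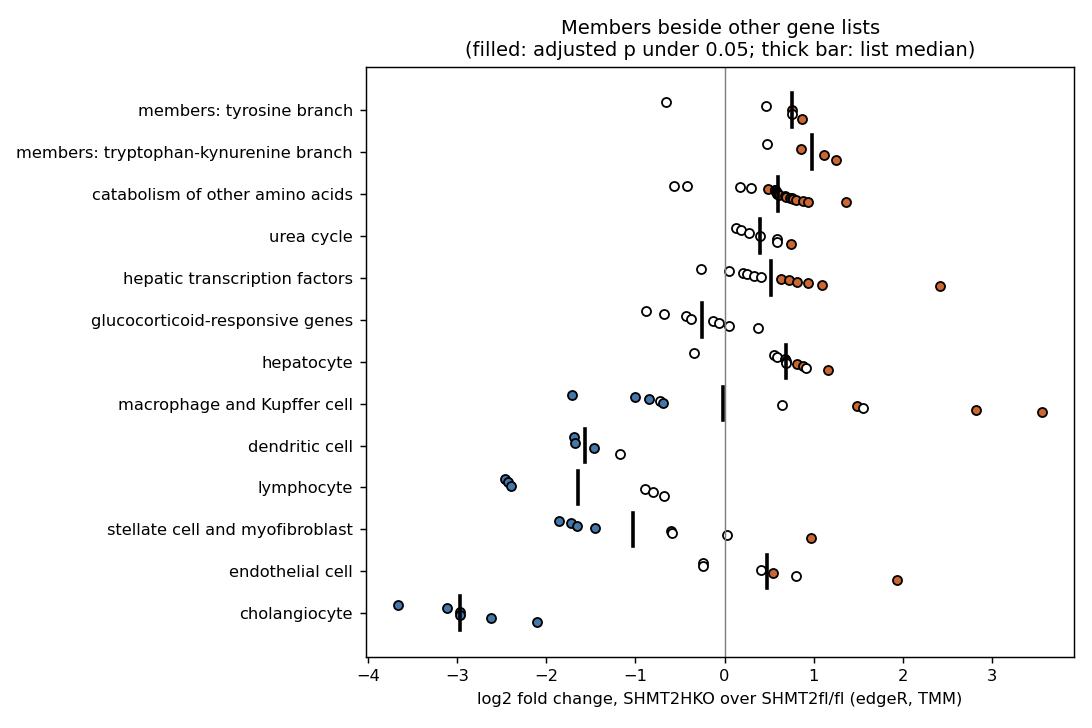
Log2 fold change of SHMT2HKO over SHMT2fl/fl (TMM scaling) in both branches, in 4 other gene lists and in 7 lists of cell type markers, with 1 point per tested gene (filled where the adjusted p was under 0.05) and a bar at the median. The medians of both branches (0.75 and 0.98) lie beside those of hepatocyte markers (0.69) and of other amino acid catabolism (0.60), and cholangiocyte markers lie lowest (-2.97). With ERCC scaling the medians of the tyrosine branch, the hepatocyte markers and the other catabolism list are below 0.

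The profile of the 9 enzymes over the 6 mice was shared with genes of other kinds. Among 8834 genes with a mean of at least 10 CPM, the 5 with the smallest root-mean-square difference in centred log2 CPM from the mean profile of the 9 were *Psmc1* (0.035), *Psma6* (0.0432), *Ddrgk1* (0.0457), *Sdhb* (0.0460) and *Ivd* (0.0468). *Psmc1* and *Psma6* encode proteasome subunits, *Sdhb* a subunit of succinate dehydrogenase and *Ivd* isovaleryl-CoA dehydrogenase of leucine breakdown. The members themselves lay between 0.0993 (*Hgd*) and 0.718 (*Tat*) from their own mean profile.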

How the data were processed

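Whole-liver RNA of 6 mice, 3 SHMT2fl/fl and 3 SHMT2HKO, was sequenced. Per the submitters' processing notes and the study's methods, the authors trimmed reads with Trimmomatic 0.36, aligned them with STAR 2.5.2b to GRCm38 with ERCC sequences and counted unique exon reads with featureCounts of Subread 1.5.2; use of strand is not given in the sources used here. The deposited values are these raw counts, without normalization. The 92 ERCC entries entered neither library sizes nor tests, and 345 gene IDs without a symbol (0.0309% to 0.0537% of counts) were kept in. Each column was mapped to its group by its label.

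In edgeR 4.0.16 (R 4.3.3), genes passing filterByExpr were scaled by TMM and tested by the robust quasi-likelihood F test, two-sided, with Benjamini-Hochberg adjustment over 16089 genes and a threshold of 0.05. The floor of 3 counts in a library corresponds to 0.0733 to 0.152 CPM. Same-group libraries differed by more than counting noise. Alternatives were DESeq2 1.42.0, limma-voom (limma 3.58.1), library totals, upper-quartile and ERCC scaling, a filter of 1 count, at least 10 counts in every sample, non-robust dispersions, a block for replicate number, and fits without each mouse in turn. Scaling to 10 hepatocyte markers was added after seeing the data. The code was tested on simulated data.

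Gene positions and exon lengths are from the GENCODE annotation of GRCm38, and promoter sequences from RefSeq. The 9 genes, the lists and the tests were chosen with earlier results of these data known. The genes named are *Shmt2*, the 9 enzymes, genes of each pathway list with an adjusted p under 0.05 (or the 2 of largest change), the marker *Spp1*, and the 5 genes of nearest profile. Results for 2 genes of these lists are not reported here.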

Additional observations from a re-analysis of the deposited data

How the results depend on the processing

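*Shmt2* fell in each of the 16 alternatives. *Kmo* and *Haao* rose in 14 of the 16 and *Kynu* in 13, the exceptions being ERCC and hepatocyte marker scaling and, for *Kynu*, library totals; their adjusted p ranged up to 0.647, 0.537 and 0.975. *Gstz1* and *Fah* rose in 8. The count of the 9 genes that rose, 5, was 2 with library totals, 0 with ERCC scaling, 3 with the replicate block and 0 with hepatocyte markers, and 3 to 8 when each mouse was left out. The count that fell, 0, was 1 with DESeq2, library totals, upper-quartile scaling, ERCC scaling, a filter of 1 count and hepatocyte markers (*Tat* in each), and 0 when any mouse was left out. The member median of 0.76 was 0.31 with library totals, 0.11 with hepatocyte markers, -0.0764 with ERCC scaling and 0.626 to 0.997 when each mouse was left out. Over all genes 4663 changed, 2866 with ERCC scaling and 2426 to 5597 when each mouse was left out. Those that rose numbered 2012, or 538, 107 and 204 with library totals, ERCC scaling and hepatocyte markers and 805 to 2521 without a mouse; those that fell numbered 2651, or 4919 with library totals and 1621 to 3076 without a mouse. In the other pathway lists 39 rose, or 14, 1 and 3 with library totals, ERCC scaling and hepatocyte markers and 20 to 49 without a mouse. There 1 fell, or 3 with DESeq2, 6 with library totals, 3 with upper-quartile scaling, 5 with ERCC scaling, 2 with at least 10 counts in every sample, 7 with hepatocyte markers and 1 to 4 without a mouse.

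Of the genes named, these log2 fold changes turned negative; other genes of the lists were not followed singly. With library totals it was *Nadsyn1* (-0.0307). With ERCC scaling they were *Hpd* (-0.15), *Hgd* (-0.37), *Fah* (-0.0764), *Tdo2* (-0.30), *Afmid* (-0.0181), *Kyat3* (-0.0540), *Qprt* (-0.26), *Dhtkd1* (-0.0216), *Nadsyn1* (-0.32), *Nmnat1* (-0.21) and *Otc* (-0.13). With hepatocyte markers they were *Hgd* (-0.19), *Tdo2* (-0.14), *Qprt* (-0.0905), *Nadsyn1* (-0.18) and *Nmnat1* (-0.0537). The cause was not tested. In the whole RefSeq window, which adds 50 bases after the start, the shares of all windows with a match were 13.6% for TATAAA, 37.4% for CCAAT, 7.1% for GTTAAT, 19.0% for AGAACA, 14.4% for CAAAGT, 10.8% for TTGCNNAA and 35.7% for GGGCGG, and *Kmo* then also held AGAACA.

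Same-numbered mice of the 2 genotypes had correlations of their deviations of -0.019, 0.074 and -0.114, so the numbers were not taken to pair the mice. With the replicate block 3584 genes changed, and *Gstz1* (adjusted p = 0.0548) and *Fah* (0.0736) missed the threshold. With 3 mice a group, no spike-in amounts to check and no protein or metabolite values here, an absolute direction of these mRNAs could not be settled.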
